A study of Homo sapiens with 12 samples.

Results

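Heme breakdown, ferritin, transferrin receptor and heme synthesis genes were followed in SHI-1, an acute myeloid leukemia (AML) cell line that carries an MLL-AF6 fusion. The 10 genes were taken by name from the 14866 listed in the RNA-seq tables: HMOX1, HMOX2, BLVRA, BLVRB, FTH1, FTL, TFRC, ALAS1, BACH1 and IREB2. The cells received DMSO, 0.3 µM disulfiram with 1 µM copper (DSF), 5 µM niclosamide (NSM), or DSF and NSM together (DSF+NSM) for 16 h, with 3 libraries from independent experiments in each of the 4 groups. The labels name copper only with disulfiram, so the effects of disulfiram and of copper cannot be told apart, and a single line limits the results to that line.

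Heme oxygenases open the heme ring and release iron, carbon monoxide and biliverdin, which biliverdin reductases turn into bilirubin. Freed iron is stored in ferritin, a shell of heavy (FTH1) and light (FTL) chains, while transferrin receptor 1 (TFRC) brings iron into the cell and ALAS1 starts the synthesis of new heme outside the red cell lineage. In textbook accounts BACH1 represses HMOX1 and both ferritin genes until heme binds it, through elements that NRF2 and small MAF proteins also use. Iron regulatory proteins, IRP2 (the product of IREB2) among them, bind RNA hairpins called iron-responsive elements. They block ferritin translation from the 5′ end of the mRNA and stabilize the TFRC mRNA at its 3′ end.

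These hairpins are shown because they separate the genes whose mRNA stability is known to answer to iron (TFRC) from those controlled through translation (FTH1, FTL). The search looked on the sense strand of 19061 GENCODE 44 transcripts (1 per gene, GRCh38) for a C, 5 bases, CAGTG, a base other than G, and 5 bases that pair with the first 5 (G-T pairs allowed). At least 4 of 6 further pairs were required below the bulged C. The capitals mark the bulged C and the loop. Of these transcripts 33 (0.173%) held such a hairpin, and among the 10 genes only FTH1, FTL and TFRC did. The matches lay in the 5′ UTR of FTH1 (chr11:61967573-61967602, minus strand) and of FTL (chr19:48965335-48965364, plus strand), and at 4 places in the 3′ UTR of TFRC (minus strand, chr3:196050978-196051007, chr3:196050574-196050603, chr3:196050509-196050538 and chr3:196050462-196050491).
FTH1: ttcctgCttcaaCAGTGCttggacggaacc
FTL: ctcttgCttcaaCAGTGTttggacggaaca
TFRC site 1: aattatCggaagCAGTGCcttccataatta
TFRC site 2: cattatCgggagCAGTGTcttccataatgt
TFRC site 3: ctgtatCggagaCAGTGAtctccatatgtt
TFRC site 4: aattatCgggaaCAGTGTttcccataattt

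The DNA element bound by NRF2 or BACH1 with a small MAF partner was searched as the core TGACTCA followed by GCA, on both strands, up to 12000 and more than 250 bases before each of 19061 transcript starts. The window was set to reach the known upstream enhancers of HMOX1, so the share of genes with as many matches is no test for HMOX1. It held 2 matches before HMOX1 (chr22:35377145-35377174 and chr22:35372008-35372037, 3932 and 9069 bases before the start), and 27 of the 19061 genes (0.142%) held as many or more. FTH1 had 1 match (chr11:61972033-61972062, 4409 bases before the start), FTL had 1 (chr19:48963932-48963961, 1358 bases before it) and BLVRA had 1 (chr7:43756775-43756804, 1886 bases before it), where 4.52% of genes held at least 1. The other 6 genes had no match in this window. Capitals mark the match, read on the strand of the gene.
HMOX1, nearer: tgctagatttTGCTGAGTCAccagtgcctc
HMOX1, farther: gtgtttttccTGCTGAGTCAcggtcccgag
FTH1: cctagcagagTGCTGAGTCAcggtgggaca
FTL: gagctcagcaTGACTCAGCAgtcgctgcct
BLVRA: tgtactggtcTGACTCAGCAagtgaacatc
A match is a description of the sequence and was not tested for binding.

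Values are normalized counts per gene as the authors deposited them. For HMOX1, BLVRB, FTH1, FTL and IREB2 they were whole multiples (within 0.05 steps) of the smallest step in all 12 libraries, which gives the reads named for HMOX1. Judged from the steps between the lowest values, libraries held about 10.2 to 19.0 M reads each. The values of a library summed to 14.0 to 14.4 M in DMSO and to 22.7 to 25.6 M in DSF+NSM, so scaling to equal sums lowers every DSF+NSM change. NSM replicate 3 stood apart, with Spearman correlations of 0.939 and 0.95 to the other NSM libraries where all other pairs within a group reached 0.980 to 0.996. All 10 myeloid and monocytic markers were listed, none of 10 erythroid markers had a value here, and 5 T and B cell markers summed to 349 or less in every library. Summed myeloid markers moved with treatment, from 64641 to 73957 in DMSO to 44012 to 50292 after DSF, 32235 to 37336 after NSM and 33009 to 34299 after DSF+NSM, and their part in the results was not tested. In RNA from whole cultures, fewer cells of a kind and less RNA per cell cannot be told apart.

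HMOX1 showed the largest rise of all 13502 genes tested after DSF, and again after DSF+NSM. HMOX1 (chr22:35380361-35394214) encodes heme oxygenase-1, the inducible enzyme of heme breakdown. Its normalized counts were 9.72, 8.31 and 10.8 in the DMSO libraries, which corresponds to 11 reads in each. They were 12750.0, 16708 and 7614 after DSF. NSM alone left values of 18.7, 11.6 and 11.5, from 19, 12 and 9 reads. After DSF+NSM the counts were 124719, 133674 and 117085, from 71247, 86565 and 52743 reads. Each group was separate from the other 3 in every library, although the NSM and DMSO values lay within a few reads of each other and near the filter of 10, which HMOX1 passed in 1 of 3 DMSO libraries and in all others.

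The mean HMOX1 count was 9.61 ± 1.24 (SD, n = 3) in DMSO and 12357 ± 4559.7 in DSF, a ratio of means of 1287. The log2 fold change, computed on log2(value + 1), was 10.12 (SE 0.26, limma adjusted p = 1.5e-10). After DSF+NSM the mean of 125159 ± 8303 was 13030 times that of DMSO (13.53 on the log2 scale, SE 0.26, adjusted p = 4.2e-12). After NSM alone the mean was 13.9 ± 4.09, and the change of 0.47 (95% CI −0.09 to 1.02) did not pass the test (adjusted p = 0.151). HMOX1 ranked between 12378 and 12678 of 14866 genes by count in DMSO, between 113 and 234 in DSF, and between 20 and 22 in DSF+NSM.

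**Figure D1:**
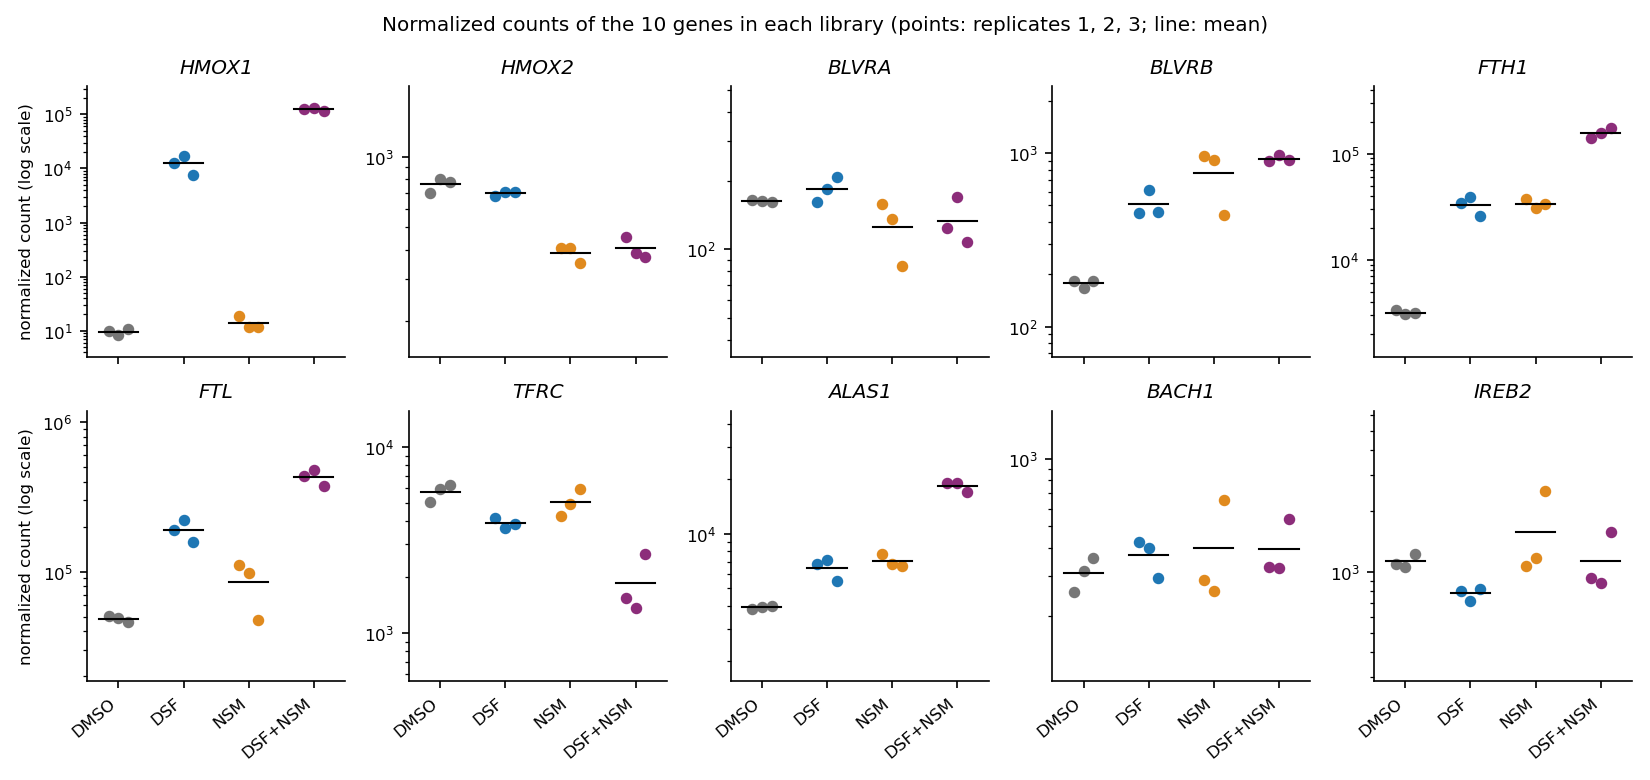
Normalized counts (log scale) of the 10 genes in each library, by group, with points for replicates 1 to 3 and a line for the mean. HMOX1 climbs from at most 10.8 in DMSO to at least 117085 after DSF+NSM and FTH1 from at most 3356 to at least 139589, while BACH1 overlaps between all groups and IREB2 between all but DSF, whose 716 to 824 lie below every other library.

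HMOX2 (chr16:4474690-4510347), the constitutive heme oxygenase, changed in the other direction and with the other drug. Its counts were 701, 799 and 780.4 in DMSO and 679, 708 and 705 in DSF. They were 409.6, 409 and 351 in NSM, and 454, 389 and 374 in DSF+NSM. Every library with NSM was below every library without it. HMOX2 fell by 0.96 (log2, SE 0.13, limma adjusted p = 8.7e-05) after NSM and by 0.91 (adjusted p = 1.0e-04) after DSF+NSM, and its DSF change of −0.12 did not pass (95% CI −0.41 to 0.16). DSF+NSM and NSM differed by 0.056 (95% CI −0.23 to 0.34, adjusted p = 0.762). In each library the ratio of HMOX1 to HMOX2 was 0.0104 to 0.0139 in DMSO, 10.8 to 23.6 after DSF, 0.0284 to 0.0455 after NSM and 275 to 344 after DSF+NSM.

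The biliverdin reductases separated. BLVRB (chr19:40447765-40465764), a flavin and biliverdin IXβ reductase, had counts of 183, 168 and 183 in DMSO and of 449.9, 609 and 460.1 in DSF. NSM libraries had 962, 909.8 and 442, and DSF+NSM libraries 905, 974 and 908. All 9 treated libraries were above all DMSO libraries, and NSM replicate 3 lay below the 3 DSF libraries. BLVRB rose by 1.49 (log2, SE 0.25, limma adjusted p = 0.00181) after DSF, by 2.03 (adjusted p = 3.8e-05) after NSM and by 2.38 (adjusted p = 7.4e-06) after DSF+NSM. Without NSM replicate 3 its NSM change was 2.39 and the difference between DSF+NSM and NSM, 0.35 with all libraries (adjusted p = 0.284), was −0.011. BLVRA (chr7:43758680-43807342), the main biliverdin IXα reductase, had 162 to 165 in DMSO, 162 to 208 after DSF, 84.6 to 157 after NSM and 107 to 169.7 after DSF+NSM, and no change against DMSO passed the test (adjusted p of 0.679, 0.162 and 0.284). With equal sums BLVRA passed as lower after NSM (−0.69, limma adjusted p = 0.0266) and after DSF+NSM (−1.10, adjusted p = 0.0012). With library weights BLVRA passed as lower after NSM (−0.27, adjusted p = 0.00628). The ratio of BLVRB to BLVRA was 1.03 to 1.13 in DMSO and 5.74 to 8.45 in DSF+NSM.

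Both ferritin chains rose in all 3 treatments, with larger log2 changes for the heavy chain than for the light chain. FTH1 (chr11:61959718-61967634), the chain that oxidizes iron for storage, had counts of 3356, 3068 and 3139.9 in DMSO. They were 34022, 38706 and 25662 in DSF, and 37344, 30462 and 33879 in NSM. DSF+NSM libraries had 139589, 157183 and 173174. The DSF and NSM ranges overlapped, and both lay between DMSO and DSF+NSM.

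FTH1 rose by 3.34 (log2, SE 0.15, limma adjusted p = 4.3e-08) after DSF, by 3.41 (adjusted p = 3.4e-08) after NSM and by 5.61 (adjusted p = 9.1e-11) after DSF+NSM, which is 10.1-fold, 10.6-fold and 49.0-fold. The DSF change minus the NSM change was −0.063 (95% CI −0.39 to 0.26, adjusted p = 0.753), and equal sums turned it to 0.11. DSF+NSM exceeded DSF by 2.27 and NSM by 2.21 (adjusted p = 6.3e-07 and 6.2e-07). FTH1 shares 1267 exon bases with BEST1 on the opposite strand, and the library kit does not keep strand. BEST1 was listed at 8.43 to 18.5 in DMSO, 69.7 to 90.1 in DSF, 38.7 to 66.3 in NSM and 92.8 to 164 in DSF+NSM. How reads in the shared bases were assigned is not known. The ferritin pseudogene FTH1P3 was listed at no more than 0.222% of FTH1 in any library. Without strand, reads of HMOX2 also cannot be told from those of antisense NMRAL1, which shares 103 exon bases. NMRAL1 was at 615 to 665 in DMSO, 660 to 714 in DSF, 237 to 418 in NSM and 331 to 551 in DSF+NSM. For TFRC an antisense gene shares 191 exon bases, and for BACH1 antisense GRIK1 shares 45. LINC00189 shares 302 with BACH1 on the same strand, where knowing the strand would not separate the reads.

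FTL (chr19:48965309-48966879), the chain that helps iron mineralize in the shell, stood at 50334, 49036 and 46115 in DMSO. It rose to 189170.3, 220367 and 157903 in DSF and to 436599, 475393 and 371537 in DSF+NSM. NSM libraries had 111076, 98499.8 and 47484, of which the third lay inside the DMSO range. FTL rose by 1.95 (log2, SE 0.25, limma adjusted p = 3.3e-04) after DSF, by 0.73 (adjusted p = 0.0305) after NSM and by 3.13 (adjusted p = 9.7e-07) after DSF+NSM. Without NSM replicate 3 the NSM change was 1.11 (adjusted p = 4.9e-06), whereas scaling to equal sums gave 0.46 (adjusted p = 0.144) and the fit of the 2 groups alone left it at 0.73 (adjusted p = 0.111). Leaving out any 1 DMSO library, NSM replicate 1 or NSM replicate 2 gave 0.50 to 0.76 with adjusted p between 0.0629 and 0.118.

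The 2 chains changed by different amounts, so their ratio moved. FTH1 over FTL was 0.0626 to 0.0681 in DMSO, 0.162 to 0.180 after DSF, 0.309 to 0.714 after NSM and 0.320 to 0.466 after DSF+NSM. The groups did not overlap except NSM with DSF+NSM. Per kilobase of transcript (1 MANE transcript per gene, GENCODE 44), the mean level in DMSO was 55677 for FTL, 2650.0 for FTH1, 1659 for ALAS1, 1153 for TFRC, 454 for HMOX2, 223 for BLVRB, 178 for IREB2, 152 for BLVRA, 55.4 for BACH1 and 6.18 for HMOX1. In DSF+NSM the order began with FTL at 491209, FTH1 at 130215 and HMOX1 at 80540.1. Together HMOX1, FTH1 and FTL took 0.346% to 0.385% of a library in DMSO, 1.25% to 1.80% after DSF, 0.470% to 0.847% after NSM and 2.74% to 3.04% after DSF+NSM.

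TFRC (chr3:196012511-196082153), the receptor that takes up transferrin-bound iron, moved against the ferritins. In the fit of all 12 libraries without weights or a replicate block, the change passed only in DSF+NSM among the comparisons with DMSO. Its counts were 5084, 5975 and 6282 in DMSO, and 4156, 3661 and 3876 in DSF. They were 4276, 4970.4 and 5972 in NSM, and 1550.5, 1372 and 2649.6 in DSF+NSM. All DSF libraries were below all DMSO libraries, NSM overlapped DMSO and lay above DSF, and DSF+NSM lay below every other library. TFRC fell by 1.69 (log2, SE 0.21, limma adjusted p = 3.2e-05) after DSF+NSM. The DSF change was −0.56 (95% CI −1.03 to −0.10, adjusted p = 0.0848) and the NSM change −0.20 (95% CI −0.66 to 0.27, adjusted p = 0.467). The DSF change passed the test when NSM replicate 3 (adjusted p = 0.0353) or DSF+NSM replicate 3 (adjusted p = 0.0177) was left out, and in the fit of the 2 groups alone (adjusted p = 1.7e-05). With library weights the DSF change (−0.57, limma adjusted p = 5.3e-05) and the NSM change (−0.23, adjusted p = 0.00377) both passed. DSF+NSM was below DSF by 1.13 (adjusted p = 0.00111) and below NSM by 1.5 (adjusted p = 1.9e-04).

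Within each library the ratio of FTH1 to TFRC was 0.500 to 0.660 in DMSO, 6.62 to 10.6 after DSF, 5.67 to 8.73 after NSM and 65.4 to 115 after DSF+NSM. The same ratio with FTL was 7.34 to 9.90 in DMSO and 140.2 to 347 in DSF+NSM. Ferritin mRNA over TFRC mRNA was thus higher in DSF+NSM than in every other library on both ratios. These are RNA values, and neither the proteins nor iron storage or uptake was measured in these libraries.

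**Figure D2:**
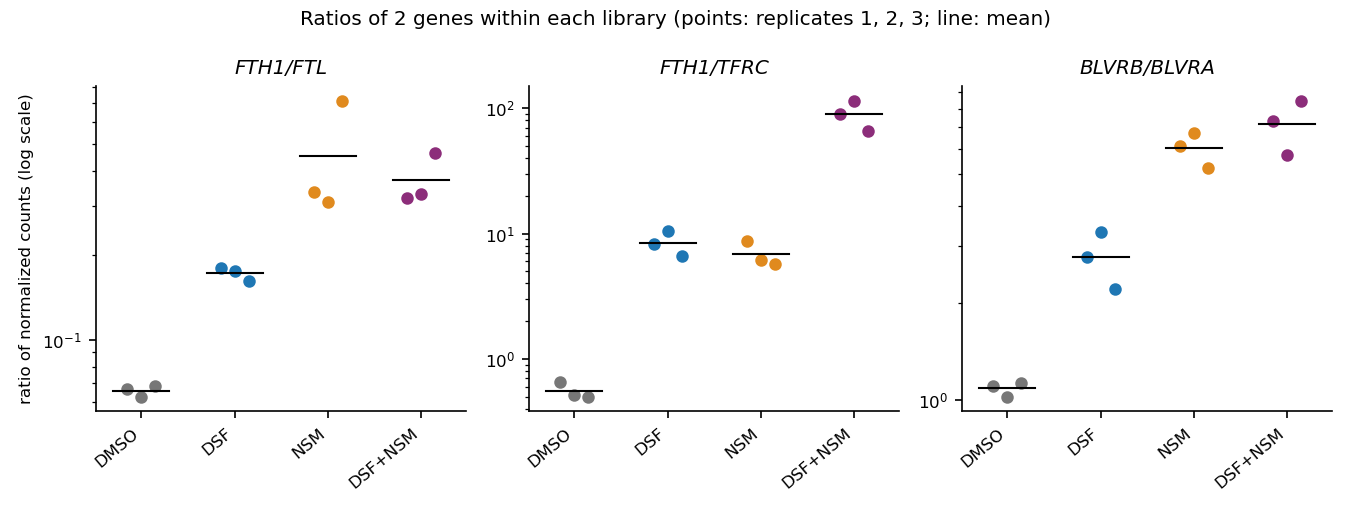
Ratios of 2 genes' normalized counts within each library (log scale), by group, with points for replicates and a line for the mean. FTH1 over TFRC reaches 65.4 to 115 in DSF+NSM, and FTH1 over FTL lies between 0.0626 and 0.0681 in DMSO and above 0.16 in every treated library.

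ALAS1 (chr3:52198086-52214327), the first and rate-limiting enzyme of heme synthesis outside the red cell lineage, rose in every treatment. Its counts were 3854, 3973 and 3992 in DMSO, 6792, 7139 and 5489.6 in DSF, and 7708, 6821 and 6625 in NSM. DSF+NSM libraries had 18945, 18928 and 16911. The DSF and NSM libraries overlapped, and the groups were otherwise separate. ALAS1 rose by 0.71 (log2, SE 0.12, limma adjusted p = 0.00196) after DSF, by 0.84 (adjusted p = 1.2e-04) after NSM and by 2.21 (adjusted p = 3.8e-08) after DSF+NSM. The difference between DSF and NSM was −0.13 (95% CI −0.39 to 0.13, adjusted p = 0.395), and it turned to 0.043 with equal sums.

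In the limma fit of all 12 libraries no enzyme of the 7 after ALAS1 passed as higher in any treatment, while 3 fell after NSM and 5 after DSF+NSM. Of the 11 other heme synthesis genes in a list written from general knowledge, which adds the transporters SLC25A38 and ABCB10 and the chaperone CLPX, 10 were tested and ALAS2 was not analysed here. After DSF limma called 0 of 10, where 17.8% of all genes passed, with 1 of the 10 at an unadjusted p under 0.05. Library weights and the fit of only the compared groups called 3 of 10 each, and leaving out NSM replicate 3 called 1. These settings called, in that order, 8171, 7289 and 5551 of all 13502 genes. After NSM 4 fell and 2 rose (SLC25A38 and CLPX), where 23.7% of all genes tested passed as lower and 25.4% as higher. After DSF+NSM 6 fell and none rose, where 24.5% of all genes passed as lower and 28.3% as higher. Without NSM replicate 3 the counts were 8 and 1, where 9137 of 13502 genes passed, 52.1% of them as higher. The median change of the list was 0.027, −0.49 and −0.70 against a median over all genes of 0.047, 0.014 and 0.030. With equal sums all 10 fell after DSF+NSM, where 9134 of 13523 genes passed and only 16.7% of those were higher.

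UROS (uroporphyrinogen III synthase) had a mean of 859.6 ± 77.7 (SD, n = 3) in DMSO, 703 ± 59.3 after DSF, 375 ± 22.8 after NSM and 383 ± 9.69 after DSF+NSM. It fell by 1.19 after NSM and by 1.16 after DSF+NSM (log2, limma adjusted p = 1.4e-05 and 1.1e-05). CPOX, the mitochondrial coproporphyrinogen oxidase, passed the test after DSF+NSM and after neither single drug, and fell from 604 ± 32.0 to 228 ± 11 (−1.40, adjusted p = 5.1e-06), and the combination went further than the sum of both drugs (interaction −1.15, adjusted p = 0.00132). ABCB10, a mitochondrial transporter linked to heme synthesis, fell from 453 ± 46.2 to 113 ± 16.1 after DSF+NSM (−1.99, adjusted p = 5.2e-06). FECH, which inserts iron into the porphyrin ring, fell by 0.95 after NSM and by 0.82 after DSF+NSM (adjusted p = 7.0e-04 and 0.00156), and is named because it ends the pathway. So in DSF+NSM libraries the entry enzyme rose as 6 of the other 10 genes fell.

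**Figure D3:**
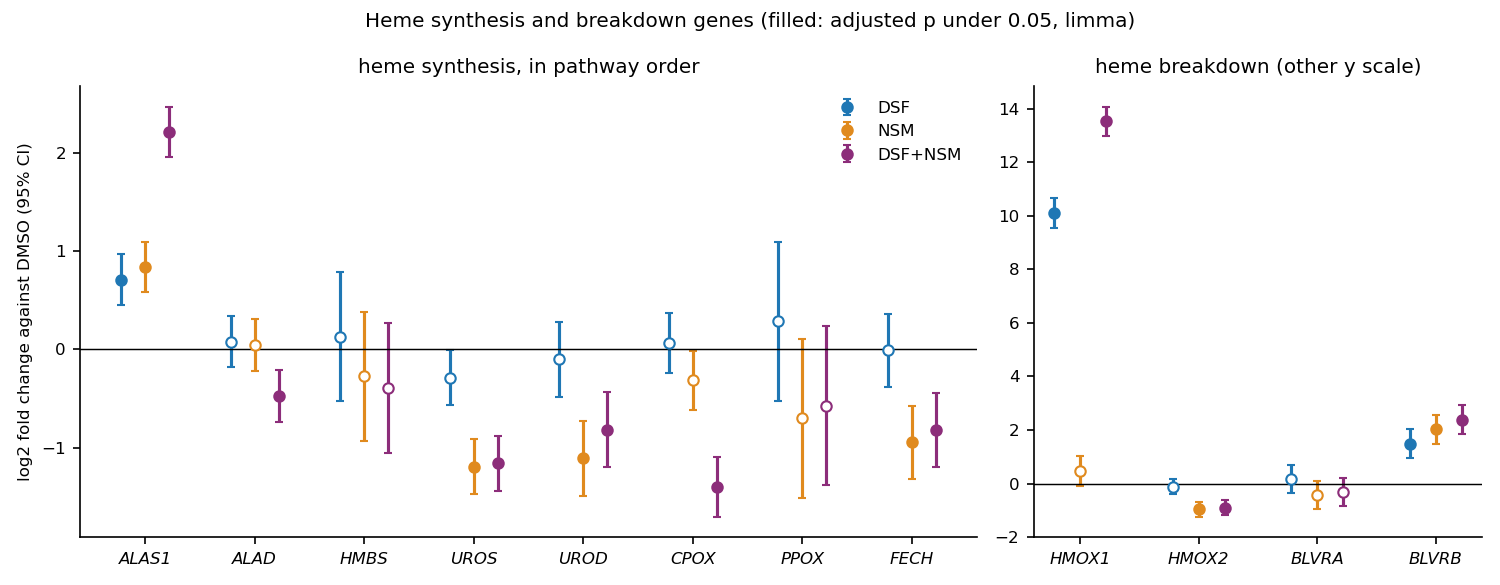
Log2 fold changes against DMSO with 95% confidence intervals for heme synthesis genes in pathway order and for the heme breakdown genes, which have another y scale. Filled points have a limma adjusted p under 0.05. ALAS1 lies above 0 in every treatment, reaching 2.21 after DSF+NSM, where UROS (−1.16), CPOX (−1.40) and FECH (−0.82) lie below 0.

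The 2 regulators among the genes did not pass the test against DMSO. BACH1 (chr21:29194071-29630751), the repressor, had counts of 255, 318 and 360.3 in DMSO, and 424, 401 and 294 in DSF. They were 287, 259 and 653 in NSM, and 330.3, 325 and 539 in DSF+NSM. All 4 groups overlapped, with the third library highest in NSM and in DSF+NSM. The changes were 0.26, 0.24 and 0.33 (log2, SE 0.32, limma adjusted p of 0.624, 0.557 and 0.417). Without NSM replicate 3 the NSM change was −0.18. With library weights BACH1 passed as higher after DSF (0.32, adjusted p = 0.0324) and as lower after NSM (−0.26, adjusted p = 0.0105). Equal sums turned it to −0.025 and the DSF+NSM change to −0.45.

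IREB2 (chr15:78437431-78501453), which encodes IRP2, had 1097, 1056 and 1230.3 in DMSO and 805, 716 and 824 in DSF. It had 1070.0, 1167 and 2503 in NSM and 933, 877 and 1572 in DSF+NSM, again with the third library highest. Its DSF libraries were all below its DMSO libraries, with a change of −0.53 (log2, 95% CI −1.16 to 0.10, limma adjusted p = 0.233). That change passed when NSM replicate 3 was left out (adjusted p = 0.0227) and in the fit of the 2 groups alone (adjusted p = 4.2e-05). It also passed with library weights (−0.49, adjusted p = 3.9e-05). IREB2 was lower in DSF than in NSM by 0.91 (adjusted p = 0.0239), a difference of 0.52 without NSM replicate 3 (adjusted p = 0.0333), and it missed the test with equal sums, in the fit of the 2 groups alone or without any 1 DSF library (adjusted p of 0.0512 to 0.0747). IREB2 changed by 0.38 after NSM and by −0.049 after DSF+NSM, and neither passed the test (adjusted p = 0.301 and 0.898), although with equal sums the DSF+NSM change was −0.83 and passed (adjusted p = 0.0289).

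MAFF and MAFG, small MAF genes whose products partner BACH1 and NRF2, rose while BACH1 itself did not pass. MAFF had counts of 51.7, 60.3 and 51.8 in DMSO, 281, 311 and 219 after DSF, 513, 325 and 364 after NSM and 2444, 2217 and 1973 after DSF+NSM. No treated library overlapped DMSO, and DSF+NSM exceeded every single-drug library. Its log2 changes were 2.28, 2.83 and 5.31 (limma adjusted p = 1.2e-05, 6.2e-07 and 1.5e-09). MAFG rose by 0.95, 1.59 and 2.42 (adjusted p = 0.00534, 2.9e-05 and 6.9e-07), and BACH2, a relative of BACH1, rose by 1.67, 0.96 and 1.61 (adjusted p = 9.4e-04, 0.00713 and 1.9e-04). Of the 12 regulators other than BACH1 and IREB2, 11 were tested, of which 5 rose after DSF, where 11.9% of all genes passed as higher. The DSF call of a gene not named here was lost with equal sums and in 9 of 12 fits that left out 1 library. After NSM 7 rose and 3 fell, where 25.4% of all genes passed as higher and 23.7% as lower. After DSF+NSM 6 rose and 1 fell (4 and 4 with equal sums), beside 28.3% and 24.5% of all genes. With equal sums 9134 of 13523 genes passed after DSF+NSM, 16.7% of them as higher.

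In the comparison of DSF with DMSO 5 of the 10 genes passed the test, all higher, where 17.8% of the 13502 genes tested passed, 11.9% as higher and 5.95% as lower. With NSM 5 passed (4 higher, 1 lower), against 49.1% of all genes (25.4% higher, 23.7% lower). With DSF+NSM 7 passed (5 higher, 2 lower), against 52.8% (28.3% higher, 24.5% lower). The share of the 10 genes called after NSM was close to that of all genes. The median change of the 10 genes was 0.48 after DSF, 0.42 after NSM and 1.27 after DSF+NSM, beside 0.047, 0.014 and 0.030 over all genes. These 3 comparisons share the DMSO libraries.

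**Figure D4:**
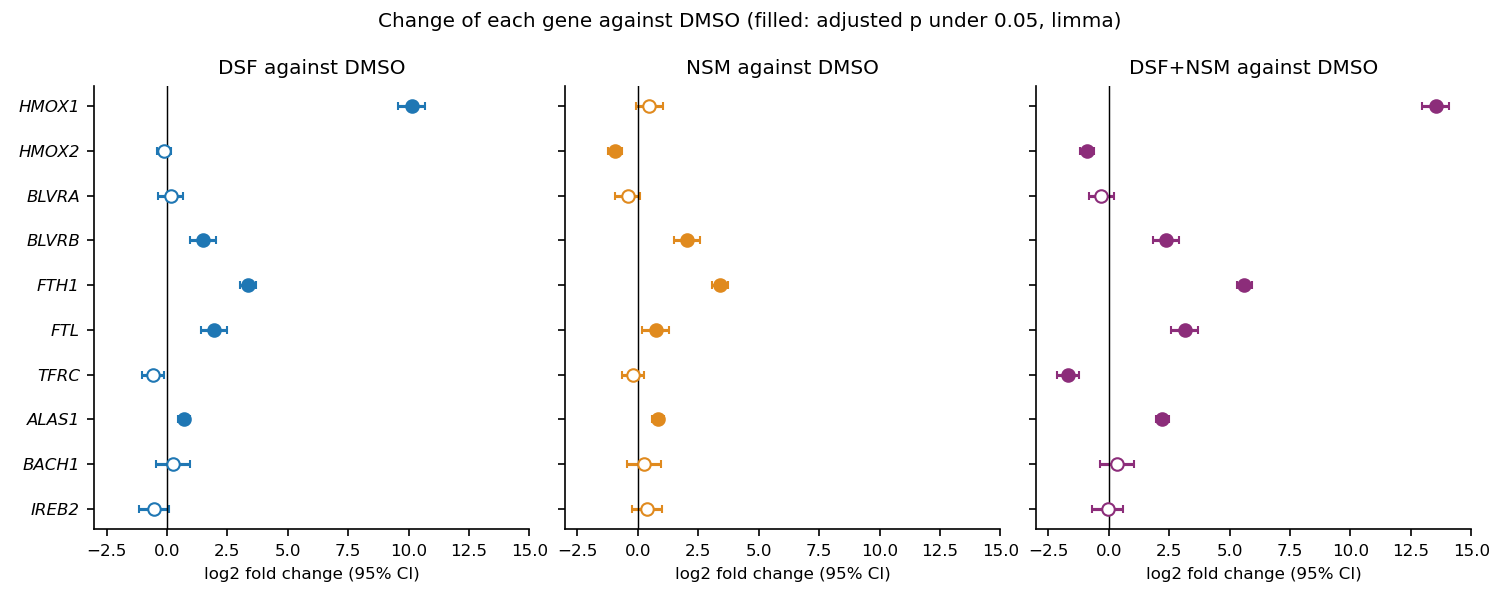
Log2 fold change against DMSO with its 95% confidence interval for each of the 10 genes, in 1 panel per treatment, with filled points for a limma adjusted p under 0.05. HMOX1 stands far to the right after DSF (10.12) and DSF+NSM (13.53) but near 0 after NSM (0.47), while FTH1 lies at 3.34, 3.41 and 5.61.

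Adding NSM to DSF changed 7 of the 10 genes (5 higher, 2 lower), where 43.1% of all genes passed (21.7% higher, 21.4% lower). HMOX1 rose by a further 3.41 (log2, SE 0.26, limma adjusted p = 1.7e-06), a 10.6-fold increase, although NSM alone left HMOX1 near DMSO. ALAS1 rose by 1.5, FTL by 1.18 and BLVRB by 0.89 (adjusted p = 2.3e-06, 0.00258 and 0.0119), and HMOX2 fell by 0.78 (adjusted p = 5.0e-04). Equal sums gave 0.50 for FTL and 0.20 for BLVRB, which did not pass (adjusted p = 0.103 and 0.509). Adding DSF to NSM changed 5 (4 higher, 1 lower), where 38.6% of all genes passed (20.3% higher, 18.3% lower), with HMOX1 at 13.06 and FTL at 2.40 (adjusted p = 8.3e-12 and 2.1e-05). DSF and NSM compared directly differed in 4 (44.4% of all genes, 23.4% higher and 21% lower in DSF), with DSF higher for HMOX1 (9.65), HMOX2 (0.84) and FTL (1.22) and lower for IREB2.

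The combined change was set against the sum of the 2 single changes on the log2 scale, which tests whether the drugs' fold changes multiply. For HMOX1 the sum was 10.59 and the DSF+NSM change 13.53, so the interaction was 2.94 (95% CI 2.16 to 3.73, limma adjusted p = 1.9e-04). ALAS1 also exceeded its sum, with 2.21 against 1.54 (interaction 0.67, adjusted p = 0.0119). TFRC fell further than its sum, with −1.69 against −0.76 (interaction −0.93, adjusted p = 0.0372).

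FTH1 and BLVRB rose by less than their sums. FTH1 reached 5.61 against 6.75 (interaction −1.14, adjusted p = 0.00217), and BLVRB reached 2.38 against 3.52 (interaction −1.14, adjusted p = 0.0304). FTL had 3.13 against 2.68, with an interaction of 0.45 (95% CI −0.33 to 1.23, adjusted p = 0.382). In all 5 of the 10 genes passed, where 26.1% of all genes passed (12.1% higher, 14% lower). The calls for BLVRB and for TFRC were each lost in 9 of 12 fits that left out 1 library, and that of ALAS1 was lost with equal sums (0.25, adjusted p = 0.248).

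**Figure D5:**
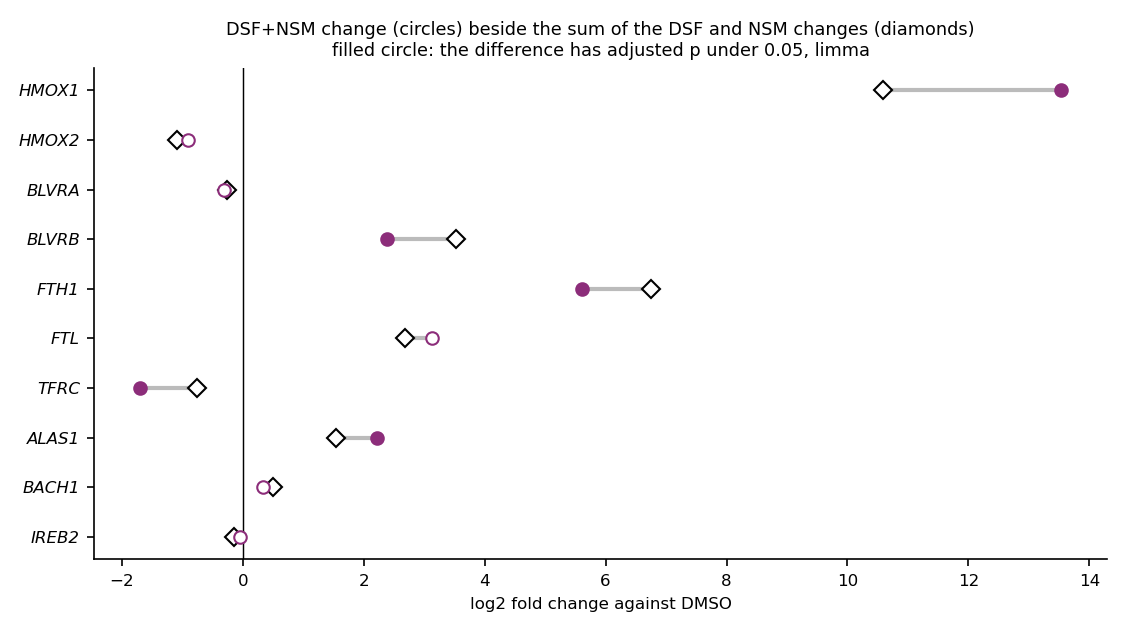
Log2 fold change after DSF+NSM (circles) beside the sum of the changes after DSF and after NSM (diamonds) for the 10 genes, with filled circles where the difference has a limma adjusted p under 0.05. The circle lies right of the diamond for HMOX1 (13.53 and 10.59) and ALAS1, and left of it for FTH1 (5.61 and 6.75), BLVRB and TFRC.

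Among genes with a mean of at least 50, those whose log2 counts followed HMOX1 most closely over the 12 libraries were MT2A (Pearson r = 0.997), TEX19 (0.995), SLC30A1 (0.993), HSPA6 (0.992) and MT1F (0.992), of 10794 genes searched. Those most like TFRC were PLEKHA2 (0.990), ZADH2 (0.981), FAM208A (0.974), MGA (0.973) and SPG21 (0.972). The libraries share 4 group means, so these values describe a common order of the groups. MT2A averaged 1679 in DMSO, 48505 after DSF, 2003 after NSM and 232991 after DSF+NSM.

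The other genes of the pathway were read from lists written with earlier results of these data known. Of 70 genes in 6 lists 60 were tested. After DSF 11 rose and 4 fell, after NSM 22 rose and 17 fell, and after DSF+NSM 19 rose and 20 fell. These shares (15, 39 and 39 of 60) stand beside 17.8%, 49.1% and 52.8% of all genes.

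Of 9 iron transport genes other than TFRC that were tested, 5 fell and 2 rose after DSF+NSM, where 24.5% of all genes passed as lower and 28.3% as higher. One of the 5, SLC11A2 (an iron importer, −0.53), lost its call without any 1 DMSO library or DSF+NSM replicate 1, which left 4, and 7 fell without NSM replicate 3. After DSF 1 rose (0 without any 1 DMSO library, DSF replicate 1 or DSF replicate 2, and 1 rose and 3 fell without NSM replicate 3), and after NSM 2 rose and 2 fell. Of all genes 11.9% passed as higher and 5.95% as lower after DSF, and 25.4% and 23.7% after NSM. Without NSM replicate 3, 5551 of 13502 genes passed after DSF and 9137 after DSF+NSM. STEAP3, a reductase that readies endosomal iron for export to the cytosol, went from 119.8, 144 and 131 in DMSO to 17, 20.7 and 18.2 in NSM and 21.3, 12.6 and 11.3 in DSF+NSM, with 65.8, 80.4 and 102 in DSF. Its values with NSM were all below those without. Its change was −2.76 after NSM and −3.09 after DSF+NSM (limma adjusted p = 6.75e-06 and 1.7e-06). SLC40A1 (ferroportin), the only known iron exporter, which also held an iron-responsive element in its 5′ UTR, fell from 47.8, 35.3 and 39.0 in DMSO to 10.9, 3.21 and 20.8 after DSF+NSM (−2.01, adjusted p = 0.00392). Without DSF+NSM replicate 2, the lowest library, its change was −1.36 (adjusted p = 0.00909). TF, the gene of transferrin, was at 0.756 to 2.94 in DMSO, a few reads, at 1.09 to 4.63 in DSF, at 16.7 to 28.1 in NSM and at 17.8 to 23.2 in DSF+NSM, and passed as higher after NSM and DSF+NSM (limma adjusted p = 1.7e-04 and 1.9e-04). At so few reads in DMSO its fold change is not given.

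Heme transport and binding genes moved in both directions. Of 8 tested, 3 rose and 2 fell after DSF, 3 rose and 2 fell after NSM, and 3 rose and 3 fell after DSF+NSM (0 and 5 with equal sums). Scaled so, 9134 of 13523 genes passed after DSF+NSM, 16.7% of them as higher. Of all genes 11.9% passed as higher and 5.95% as lower after DSF, 25.4% and 23.7% after NSM, and 28.3% and 24.5% after DSF+NSM. With 1 library left out, the DSF calls not named below were lost in 5, 7 and 6 of 12 fits. CD163, the hemoglobin scavenger receptor of monocytes and macrophages, had a mean of 16.0 ± 4.99 in DMSO and of 50.4 ± 1.76 in DSF (1.64, limma adjusted p = 0.00335). FLVCR1, known as a heme exporter, fell by 0.79, 0.64 and 1.16 (adjusted p = 0.0150, 0.0151 and 2.8e-04), and with 1 library left out the DSF call was lost in 4 of 12 fits and the NSM call in 1. HEBP2, a heme-binding protein gene, rose by 1.11 after NSM (adjusted p = 2.7e-04) and had −0.21 after DSF+NSM (adjusted p = 0.330).

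Of 3 further storage and delivery genes, PCBP1 and PCBP2, which hand iron to ferritin, passed after NSM and DSF+NSM and NCOA4, the ferritin autophagy receptor, did not. PCBP2 rose by 0.31, 0.77 and 0.72 and PCBP1 by 0.64 after NSM and 0.39 after DSF+NSM, and with equal sums the DSF+NSM values turned to −0.061 and −0.40, of which that of PCBP1 passed as lower (adjusted p = 0.0221). The DSF call of PCBP2 was lost under all 3 rescalings, under the replicate block (adjusted p = 0.0607) and in 9 of 12 fits that left out 1 library, and the DSF+NSM call of PCBP1 in 3 of 12. Among 19 iron-sulfur cluster assembly genes 1 rose and 2 fell after DSF, and 6 rose and 6 fell after NSM. After DSF+NSM 6 rose and 5 fell (1 and 13 with equal sums, where 9134 of 13523 genes passed, 16.7% of them as higher). Of all genes 11.9% passed as higher and 5.95% as lower after DSF, 25.4% and 23.7% after NSM, and 28.3% and 24.5% after DSF+NSM. With 1 library left out, the DSF calls of this list were lost in 5, 9 and 5 of 12 fits. NUBP1 and HSCB, assembly factors, rose by 1.53 and 1.32 after DSF+NSM (limma adjusted p = 9.65e-06 and 6.2e-04), and with equal sums HSCB had 0.54 and did not pass (adjusted p = 0.0625).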

How the data were processed

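RNA from SHI-1 cells of 4 groups (3 libraries each) was sequenced after poly(A) selection with an unstranded kit. The paper's methods name STAR and Salmon, whereas the submitters' processing notes name bcl2fastq 2.19, Trimmomatic, Bowtie2, Picard, featureCounts, DESeq2 and hg38, a difference that could not be settled here. The authors deposited a table for each library with 1 signal column, a count per gene normalized by them over 24 named columns. These are not whole reads, so a count model was not used and the depth is an estimate from the step between low values.

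Genes reaching 10 in 3 or more libraries (13502 of 14866) were analysed on the log2(value + 1) scale. limma 3.58.1 in R 4.3.3 (trend, robust empirical Bayes) was fitted to the group means of all 12 libraries without a replicate block, with Benjamini-Hochberg adjustment over all genes tested and a threshold of 0.05. The interaction subtracts both single-drug changes from the combined one. P-values set each change against 1 spread per gene, pooled over the 4 groups of 3 independent experiments. A library of 1 group therefore also enters the p-values of comparisons between the others. An exact permutation test of 3 against 3 could not go below 0.1 and was not used.

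The 10 genes and the lists were chosen with earlier results of these data known. All 10 are named, and of each other list at most the 3 called genes with the largest change against DMSO. Among the genes so chosen, 1 is not reported here. FECH and NCOA4 were added after their values were seen. Genes like HMOX1 and TFRC are the 5 with the highest Pearson correlation of log2 values. Positions and sequences came from GENCODE 44 and GRCh38, with Python 3.11.15. Alternatives were 3 rescalings, 2 filters, pseudocounts of 0.1 and 10, library weights, a replicate block, only the groups compared, and leaving out each library. The fit was tested on simulated data. Whether equal replicate numbers mark the same experiment could not be settled. Of 18 same-numbered pairs 2 deviated together above 0.1, and 4 of 12 libraries correlated best with their own number.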

Additional observations from a re-analysis of the deposited data

Results flagged for a closer look

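For 5 of the 10 genes the effect of NSM differed with and without DSF, by the interaction in limma. The combined change minus the sum of the single changes was 2.94 for HMOX1 (adjusted p = 1.9e-04) and 0.67 for ALAS1 (adjusted p = 0.0119) on the log2 scale. It was −1.14 for FTH1 (adjusted p = 0.00217), −1.14 for BLVRB (adjusted p = 0.0304) and −0.93 for TFRC (adjusted p = 0.0372). Of all genes tested 26.1% passed this test. Scaling to equal sums moves the median of all genes to −0.40. That shift makes the negative values of FTH1, BLVRB and TFRC larger in size, so their passing there is no test of them. HMOX1 still passed against the shift, and ALAS1 did not (adjusted p = 0.248). With 1 library left out, the calls for BLVRB and for TFRC were each kept in 3 of 12 fits. Those for HMOX1, FTH1 and ALAS1 were kept in all 12.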

How the results depend on the processing

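Scaling to equal sums moved the median change of all genes to −0.05 for DSF, −0.25 for NSM, −0.75 for DSF+NSM, −0.68 for DSF+NSM against DSF, −0.48 against NSM and 0.21 for DSF against NSM. Rescaling moves all genes of a library alike, so relative to that median the 10 genes had to stay nearly the same (at most 0.0304 apart). That is no test of the scaling. The share of higher genes among those called went from 66.6% to 49.3% for DSF, from 51.7% to 32.9% for NSM and from 53.6% to 16.7% for DSF+NSM. Library weights raised the number of the 10 genes called to 8 for DSF, NSM and DSF against NSM, from 5, 5 and 4. Leaving out 1 library gave 3 to 5 for the interaction. The genes called over the whole table for DSF were 2405, and ranged from 911 (without DSF replicate 2) to 5551 (without NSM replicate 3) with 1 library left out, with 8171 under library weights and 7289 with only the groups compared. Library weights also gave 11107 against 6635 for NSM, 9120 against 5818 for DSF+NSM against DSF, 9782 against 5212 for DSF+NSM against NSM, 10369 against 5991 for DSF against NSM and 8933 against 3527 for the interaction, which was 6175 without NSM replicate 3. Only the groups compared gave 2473 for DSF+NSM against NSM and 3970 for DSF against NSM.

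Signs turned for values that had not passed. Equal sums gave −0.025 (NSM) and −0.45 (DSF+NSM) for BACH1, −0.46 and −0.17 for HMOX2 and BLVRB in DSF+NSM against NSM, and 0.11 and 0.043 for FTH1 and ALAS1 in DSF against NSM, of which HMOX2 then passed (adjusted p = 0.00978). Library weights gave −0.26 for BACH1 after NSM, which then passed as lower (adjusted p = 0.0105), and 0.13 for FTH1 in DSF against NSM. With 1 library left out, BACH1 after NSM ranged from −0.18 to 0.49, IREB2 from −0.0095 to 0.60 after NSM and from −0.31 to 0.11 after DSF+NSM, HMOX2 from −0.028 to 0.11 and BLVRB from −0.011 to 0.55 in DSF+NSM against NSM, and FTH1 from −0.19 to 0.10 in DSF against NSM. The cause was not tested. HMOX1 left the table when at least 10 was required in every library. Under the replicate block TFRC passed after DSF (−0.56, adjusted p = 0.0477), and the block changed no other call of the values reported for the 10 genes. The same-numbered libraries' deviations correlated at −0.064 to 0.278, and 4 of 12 libraries correlated best with their own number. Counting each reported value of the 10 genes once per setting, direction and call were kept in 521 cases when no library was left out and in 633 when 1 was. With the direction kept, a call was lost in 7 and 26 cases and gained in 11 and 3. The direction turned in 8 and 10 cases, among them the HMOX2 and BACH1 values above that then passed.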
